A study of Homo sapiens with 4 samples.

Results

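MLPH, MSANTD3 and CEP250 are 3 of 13036 listed genes, and their 18 annotated transcripts are 18 of 38510, in RNA sequencing of hepatoma cells with and without knockdown of KIAA1429. The 3 genes were chosen by measured values, since the study names them among those shared by its RNA sequencing and its RNA-binding and methylation assays, and every listed transcript of each was described. The contrast shown here was therefore part of how they were chosen, so their differences between groups are described without a test. HCCLM3, a human liver cancer cell line, received lentiviral short hairpin RNAs: 2 samples carried a control hairpin (shCtrl) and 2 carried a hairpin against KIAA1429 (shKIAA1429). KIAA1429, now called VIRMA, is a subunit of the complex that writes N6-methyladenosine on RNA. No label states whether samples of a group came from separate cultures, so any p-value measures only the spread between these samples, which may be technical. All values are FPKM, the fragments assigned to a transcript scaled to its length in kilobases and to the fragments mapped in the sample, and the read depth behind them is unknown.

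The 3 genes have no known common pathway. MLPH encodes melanophilin, which in pigment cells joins RAB27A on the melanosome membrane to the actin motor myosin Va, and which is also made in epithelia without pigment. MSANTD3 encodes a protein with a Myb/SANT-like domain whose function is little described. CEP250 encodes C-Nap1, a large coiled-coil protein at the proximal end of centrioles, where it anchors the rootletin fibres that hold the centrosome pair together until NEK2 releases them at mitosis.

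A gene value sums transcripts that often share most of their exons and differ at a few splice junctions, so these junctions are shown first. MLPH spans chr2:238395053-238463961, MSANTD3 chr9:103189438-103213993 and CEP250 chr20:34042985-34107108, all on the + strand of GRCh37. In each line below, the last 12 bases of the upstream exon are in lower case and the first 12 bases of the downstream exon in capitals, read 5′ to 3′ from the GRCh37 genome. The upper line of each pair is a junction that no other listed transcript of the gene uses, and the lower line is the junction of a complete coding form from the same donor. MLPH-211 joins 238434448 to 238443207 and skips exon 8 of MLPH-201, and MLPH-220 joins 238443290 to 238446142, an exon that no other listed MLPH transcript holds. MLPH-209 joins 238461080 to a later start within the last exon, at 238462332. MSANTD3-205 joins 103204638 to 103206410, an exon of its own, and CEP250-207 joins 34057811 to 34059878, which lies 3 bases beyond the acceptor of CEP250-202.
MLPH-211: ctgctgcactcgATCTTTGAGCTG
MLPH-201 at the same donor: ctgctgcactcgGGTCGAATGTCA
MLPH-220: cccttggccaagGCTGAACGTCAT
MLPH-201 at the same donor: cccttggccaagGGTCTAGGTGCT
MLPH-209: cacaccttcgcgTCACCGTCCCAA
MLPH-201 at the same donor: cacaccttcgcgAAACCTGTGGTG
MSANTD3-205: cctcagcccaagGCAGACGATCCT
MSANTD3-203 at the same donor: cctcagcccaagAATCATTTGCTG
CEP250-207: gtggagatcctgACAAATCACACA
CEP250-202 at the same donor: gtggagatcctgGAGACAAATCAC

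The targeted gene was examined before the members. VIRMA summed to 9.37 and 14.1 FPKM in the shCtrl samples and to 6.90 and 8.52 FPKM in the shKIAA1429 samples. Both knockdown samples were below both controls, by 0.53 on the log2(FPKM + 1) scale (SE 0.24), and the difference did not pass the test (limma across all genes, adjusted p = 0.917). An exact two-sided permutation test of the 4 samples gave p = 0.333, the smallest value that 2 against 2 allows. Of 11 hepatocyte markers looked for, 3 were listed, KRT8 and KRT18 at high level and SERPINA1 between 3.34 and 5.63 FPKM, whereas AFP, ALB, APOA1, APOB, TTR and the others had no listed transcript. The lowest maximum of any listed transcript was 0.504 FPKM. Of 8 melanocyte markers only MITF was listed, at 0.167 to 0.532 FPKM, and TYR, DCT, PMEL and MLANA were not. Of 5 fibroblast markers 4 were listed, and their sum lay between 67.9 and 74.4 FPKM in all 4 samples. LUM within it read 7.92 and 7.04 FPKM in shCtrl against 2.73 and 2.88 FPKM in shKIAA1429. The other listed markers did not follow LUM. COL3A1 was higher, at 61.9 and 55.8 against 63.6 and 62.2 FPKM. COL1A1 overlapped at 3.54 and 4.95 against 4.9 and 6.76 FPKM, and DCN at 1.06 and 0.12 against 0.177 and 0.253 FPKM. Of 5 leukocyte markers only CD14 was listed, at 2.68 to 4.12 FPKM. The part of the LUM difference in the results below was not tested, and in bulk RNA fewer cells of a type and less RNA per cell cannot be told apart.

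As summed values, MLPH and MSANTD3 were higher and CEP250 lower in the knockdown samples. MLPH summed to 33.9 and 25.3 FPKM in shCtrl and to 54.2 and 46.1 FPKM in shKIAA1429. The group means were 29.6 ± 6.05 and 50.2 ± 5.77 FPKM (SD, n = 2 each), a difference of 0.75 on the log2(FPKM + 1) scale. The groups did not overlap, although the 2 controls were less alike than those of MSANTD3 below. MSANTD3 summed to 11.6 and 11.1 FPKM in shCtrl and to 18.8 and 20.8 FPKM in shKIAA1429. The means were 11.4 ± 0.349 and 19.8 ± 1.41 FPKM (SD, n = 2 each), again 0.75 on the log2 scale, with controls that lay close together. CEP250 summed to 10.7 and 13.3 FPKM in shCtrl and to 7.82 and 8.79 FPKM in shKIAA1429. Its means were 12 ± 1.81 and 8.30 ± 0.69 FPKM (SD, n = 2 each), and it was lower by 0.48 on the log2 scale. The ratios of group means were 1.69, 1.74 and 0.691 for MLPH, MSANTD3 and CEP250. None reached an absolute log2 fold change of 1, the threshold the study set on read counts.

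All 3 sums had groups that did not overlap. Of the 11657 genes tested, 16.9% had both shKIAA1429 values above both shCtrl values and 16.7% had both below. No gene of the 11657 passed an adjusted p of 0.05 with a log2 fold change over 1 (limma, 0%), while 656 had an unadjusted p under 0.05. Averaged over the 4 samples, MLPH stood at 39.9 FPKM, higher than 88.2% of the genes tested. MSANTD3 stood at 15.6 FPKM, at the 70.2 percentile, and CEP250 at 10.2 FPKM, at the 58.2 percentile.

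**Figure D1:**
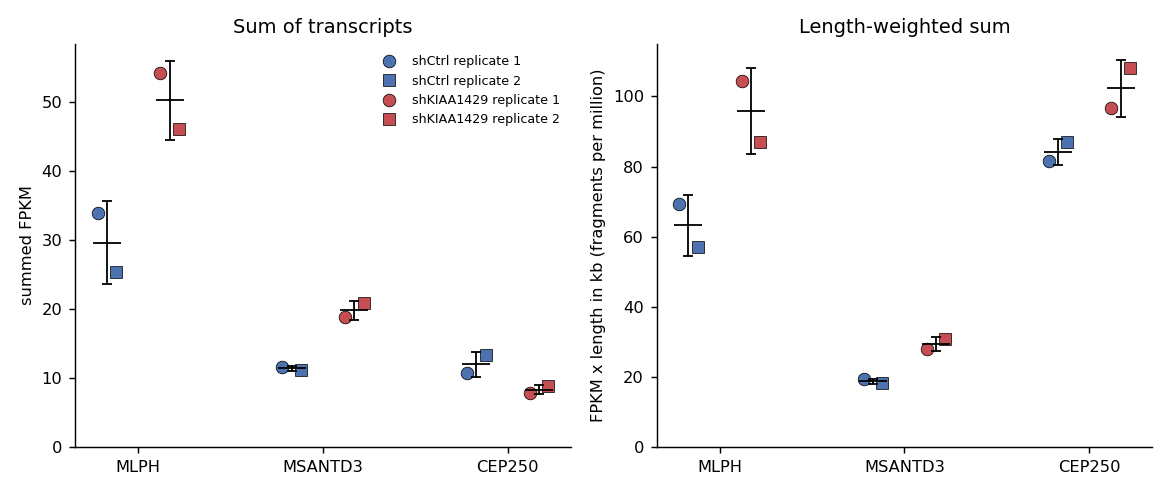
MLPH, MSANTD3 and CEP250 in each of the 4 samples, summed over all listed transcripts (left, FPKM) and summed after multiplying by length in kilobases (right, fragments scaled to the library). Points are samples and the bars are the group mean with its SD (n = 2); CEP250 is lower in shKIAA1429 on the left and higher on the right.

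The 18 transcripts did not follow their genes as blocks. Of the 18, 9 were higher in both knockdown samples than in both controls, 4 were lower and 5 overlapped, where 18.5% and 16.6% of all listed transcripts were higher and lower by this rule. MLPH had 5 higher, 1 lower and 3 overlapping transcripts. MSANTD3 had 3 higher and 2 lower, and CEP250 had 1 higher, 1 lower and 2 overlapping. In 2 or more samples, 1 FPKM or more was reached by 16 of the 18, the exceptions being MLPH-205 and MSANTD3-207. Of the 24996 transcripts that reached it, none passed both thresholds (limma, 0%), and 1570 had an unadjusted p under 0.05.

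**Figure D2:**
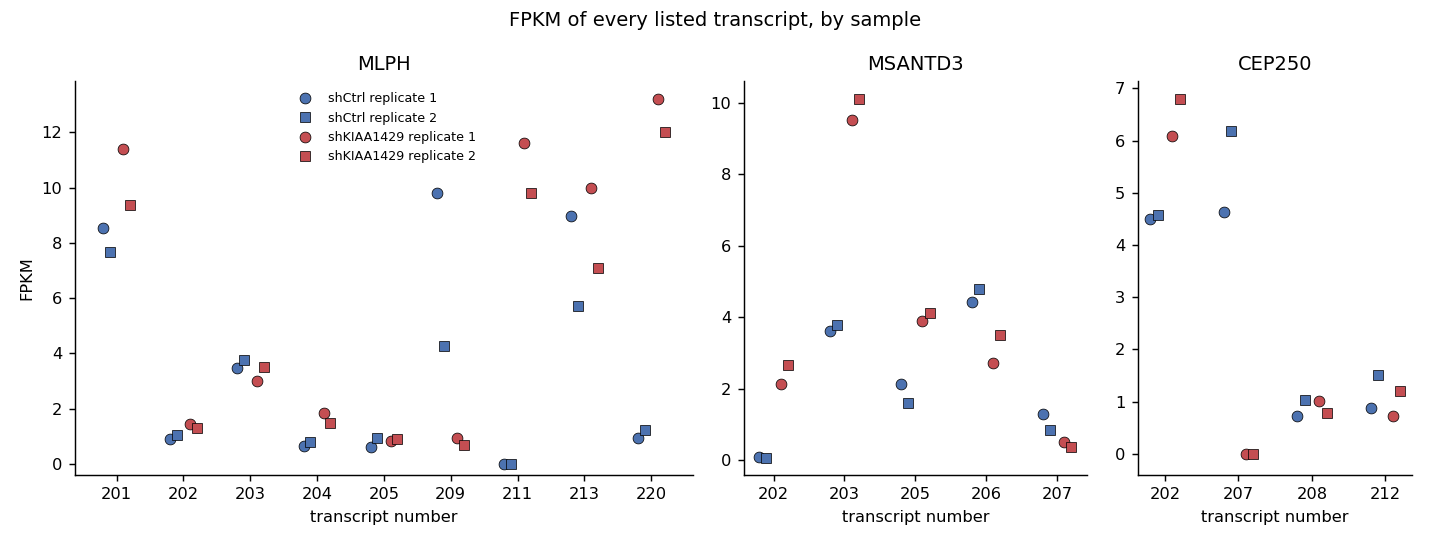
FPKM of each of the 18 listed transcripts in the 4 samples, by gene, with 1 point per sample coloured by group. MLPH-211 is listed at 0 in both shCtrl samples and CEP250-207 at 0 in both shKIAA1429 samples.

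For MLPH, the higher sum lay mostly in 2 transcripts that were near or at 0 in the controls. MLPH-211, annotated as an incomplete coding transcript of 10 exons and 360 codons, was listed at 0 in both shCtrl samples and at 11.6 and 9.82 FPKM in the shKIAA1429 samples. MLPH-211 has 0 exonic bases and 1 junction that no other listed MLPH transcript holds, so its values are estimates that little sequence sets apart. It was 1 of 28 transcripts listed at 0 in both controls and at 1 FPKM or more in both knockdown samples, which is 0.0727% of those listed, and no fold is given against a value of 0. MLPH-220, a processed transcript of 5 exons with no coding sequence, read 0.948 and 1.22 FPKM in shCtrl. In shKIAA1429 it read 13.2 and 12 FPKM, a difference of 2.70 on the log2(FPKM + 1) scale. These 2 transcripts held 2.80% and 4.82% of the summed MLPH in the controls and 45.6% and 47.3% in the knockdown samples.

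The transcript of MLPH with the opposite direction was MLPH-209, an incomplete coding form of 6 exons from the 3′ part of the gene. Like MLPH-211, it has 0 exonic bases and 1 junction that no other listed MLPH transcript holds. It read 9.81 and 4.26 FPKM in shCtrl and 0.943 and 0.669 FPKM in shKIAA1429, lower by 2.07 on the log2 scale. Both controls were above both knockdown samples, and the controls differed widely from each other. Relative to the difference of 20.5 FPKM between the group means of the gene, MLPH-211 amounted to 52.1%, MLPH-220 to 55.9% and MLPH-209 to −30.3%.

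The complete coding transcripts of MLPH differed less. MLPH-201, with 16 exons and 600 codons, read 8.53 and 7.67 FPKM in shCtrl and 11.4 and 9.38 FPKM in shKIAA1429. MLPH-202, which lacks exon 9 and encodes 572 codons, read 0.892 and 1.04 FPKM against 1.45 and 1.31 FPKM. MLPH-204, with 457 codons, read 0.640 and 0.777 FPKM against 1.84 and 1.46 FPKM, and each of these 3 was higher without overlap. MLPH-203, with 480 codons, overlapped at 3.48 and 3.74 FPKM against 3.0 and 3.50 FPKM. The 4 together summed to 13.5 and 13.2 FPKM in shCtrl and to 17.7 and 15.6 FPKM in shKIAA1429, a difference of 0.30 on the log2 scale where the whole gene gave 0.75. Of the remaining forms, the non-coding MLPH-213 overlapped at 8.99 and 5.70 FPKM against 10.0 and 7.08 FPKM, and MLPH-205 stayed between 0.601 and 0.938 FPKM.

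**Figure D3:**
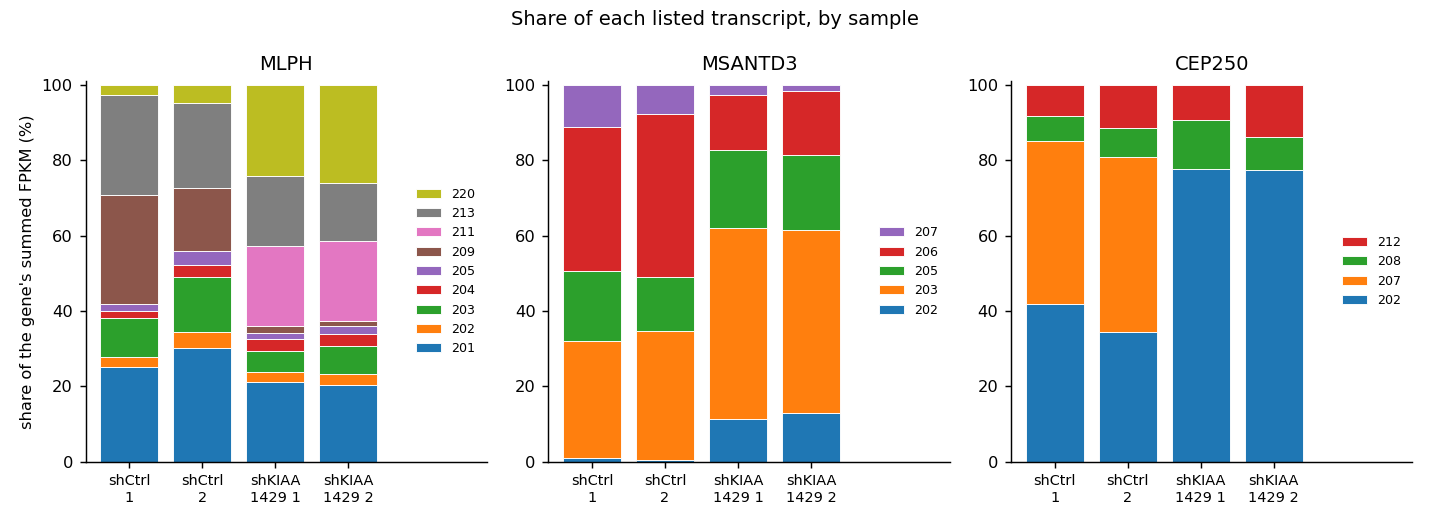
Share (percent) of each gene's summed FPKM held by each listed transcript, as stacked bars per sample. In MLPH the shares of MLPH-211 and MLPH-220 together go from 2.80% and 4.82% in shCtrl to 45.6% and 47.3% in shKIAA1429, and in CEP250 the share of CEP250-202 goes from 41.8% and 34.4% to 77.7% and 77.3%.

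Adding, at each exonic base, the FPKM of the transcripts that cover it placed the MLPH difference along the gene. This is a sum of estimates and not a count of reads. Exons 2 to 5 of MLPH-201 summed to 22.5 and 18.9 FPKM in shCtrl and to 27.8 and 22.7 FPKM in shKIAA1429, a ratio of means of 1.22. Exon 7 summed to 22.8 and 19.4 against 50.7 and 43.1 FPKM, a ratio of 2.22. Exon 9 summed to 10.1 and 9.83 against 37 and 32.1 FPKM, a ratio of 3.47. Among the exons of MLPH-201 the ratio was highest at exon 9, which both MLPH-211 and MLPH-220 hold. Outside them it was 11.6 over the 227 bases of the exon that MLPH-220 alone holds, and 2.33 over the first 329 bases of the gene, held by MLPH-204 alone at a low level. The last 1322 bases, held by MLPH-201 alone, gave 8.53 and 7.67 against 11.4 and 9.38 FPKM, a ratio of 1.29. By this sum, 89.5% of the 4692 exonic bases were higher in the knockdown samples, 10.5% overlapped and none were lower.

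**Figure D4:**
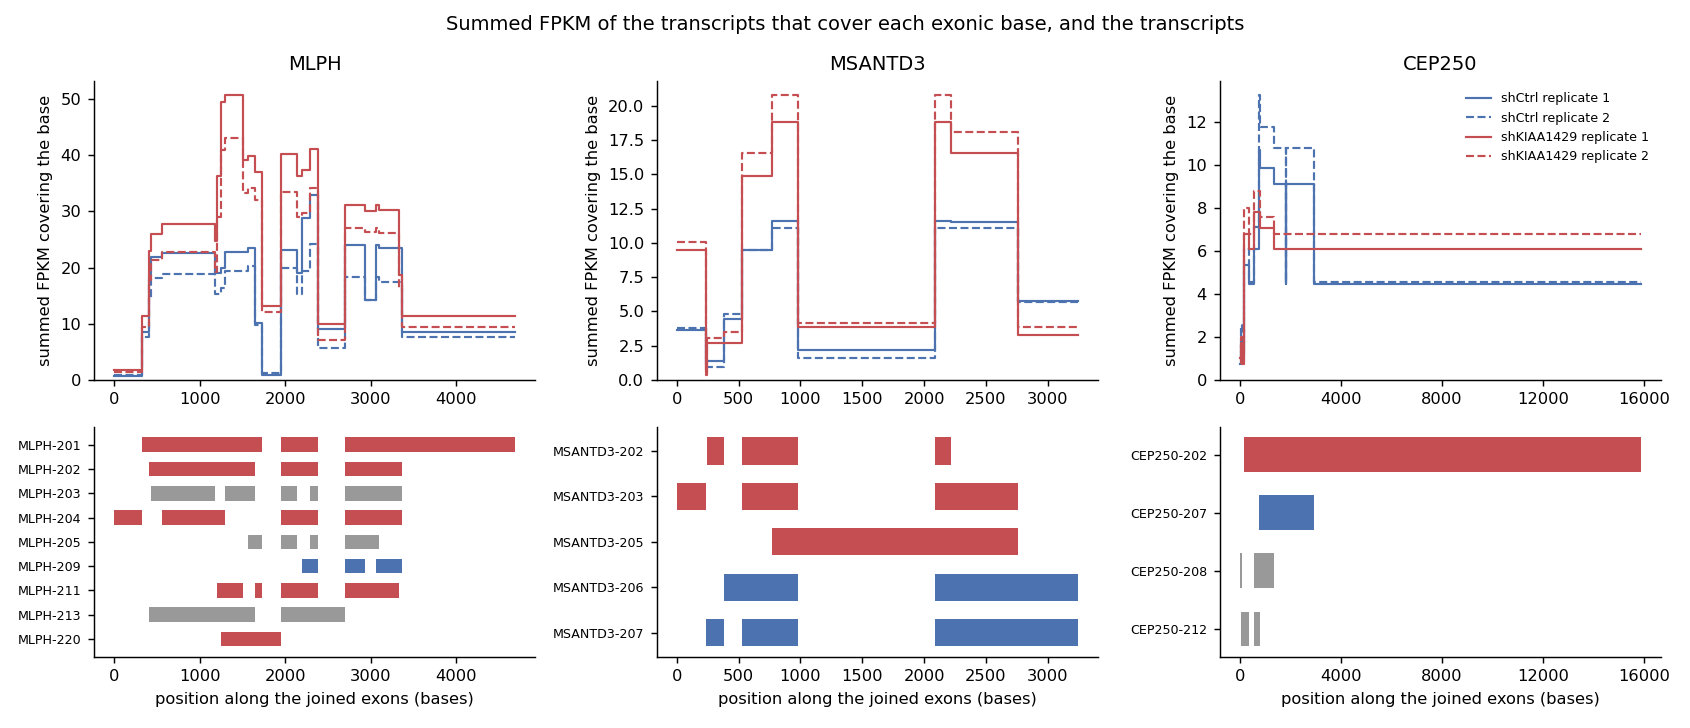
Upper panels: summed FPKM of the transcripts covering each base, against the position along the joined exons in bases, for the 4 samples; lower panels: the exons of each transcript, in red where both shKIAA1429 values were higher than both shCtrl values, blue where both were lower and grey where they overlapped. The lines are furthest apart in the middle of MLPH and change order along CEP250. In MSANTD3 they cross near the last end, as the files place the ends. Near the start of MSANTD3 they also cross, over the first exon of MSANTD3-206 and over 8 bases held by MSANTD3-207 alone.

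For MSANTD3, the transcripts differed in direction, and by the positions in the files the direction went with the end of the transcript. For MSANTD3-203, the most abundant in the knockdown samples, that end is not settled: the files place it at 103213511, and a later version of the transcript in the reference annotation places it at 103214016. MSANTD3-203, a complete coding form of 275 codons, read 3.63 and 3.78 FPKM in shCtrl and 9.51 and 10.1 FPKM in shKIAA1429, a difference of 1.2 on the log2(FPKM + 1) scale. The non-coding MSANTD3-205, which ends at 103213511, read 2.15 and 1.61 FPKM against 3.89 and 4.13 FPKM. MSANTD3-202, an incomplete coding form that ends at 103212963, read 0.104 and 0.0612 FPKM against 2.14 and 2.67 FPKM. All 3 were higher in both knockdown samples, and the last of them was close to 0 in both controls.

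Both MSANTD3 transcripts that reach the last end, at 103213993, were lower. MSANTD3-206, with 275 codons, read 4.43 and 4.80 FPKM in shCtrl and 2.72 and 3.50 FPKM in shKIAA1429. MSANTD3-207, also with 275 codons, read 1.3 and 0.865 FPKM against 0.519 and 0.366 FPKM. Summed by the ends in the files, the transcripts that stop 482 or 1030 bases before it gave 5.88 and 5.45 FPKM in shCtrl and 15.5 and 16.9 FPKM in shKIAA1429, higher by 1.37 on the log2 scale. Those that reach it gave 5.73 and 5.67 against 3.24 and 3.86 FPKM, lower by 0.56. Their share of the gene was 49.3% and 51.0% in the controls and 17.2% and 18.6% in the knockdown samples. With MSANTD3-203 at its reference end, the transcripts that reach the last end gave 9.35 and 9.45 FPKM in shCtrl and 12.7 and 14.0 FPKM in shKIAA1429, higher by 0.46. The earlier ends then gave 2.26 and 1.67 against 6.03 and 6.80 FPKM, so both sets were higher and the opposite directions by end were lost.

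The start of the transcript did not sort the MSANTD3 forms in the same way. MSANTD3-202 and MSANTD3-207 share the first exon that ends at 103189852, and the former was listed higher and the latter lower. Neither has a junction that no other listed MSANTD3 transcript uses. The bases held by 1 form alone were 0 for MSANTD3-202 and 8 for MSANTD3-207, so the split between them is an estimate. Together they gave 1.4 and 0.926 FPKM in shCtrl and 2.66 and 3.04 FPKM in shKIAA1429, which was higher. The 3 complete coding forms encode the same number of codons, and their sum was 9.35 and 9.45 FPKM in shCtrl and 12.7 and 14.0 FPKM in shKIAA1429, a difference of 0.46 on the log2 scale. By the sum over bases, 80.3% of 3245 exonic bases were higher and 19.7% lower, with the ends in the files. The readthrough transcript MSANTD3-TMEFF1-201, listed as a gene of its own, shares 86 exonic bases with MSANTD3 and read 1.18 and 1.5 FPKM in shCtrl and 0.627 and 0.313 FPKM in shKIAA1429. Its values were lower in both knockdown samples, and reads in the shared bases cannot be told apart between both genes. No other listed gene overlapped MLPH or CEP250.

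For CEP250, the long transcript and a short internal one had opposite directions, and the short one set the direction of the sum. CEP250-202, with 15691 nucleotides and 2442 codons the only complete coding form, read 4.49 and 4.58 FPKM in shCtrl and 6.08 and 6.80 FPKM in shKIAA1429. It was higher in both knockdown samples, by 0.42 on the log2(FPKM + 1) scale, and the 2 controls were nearly equal. CEP250-207, an incomplete coding form of 2156 nucleotides and 684 codons, read 4.64 and 6.18 FPKM in shCtrl and was listed at 0 in both shKIAA1429 samples. It was 1 of 81 transcripts with that pattern, which is 0.210% of those listed. CEP250-208 overlapped at 0.726 and 1.04 against 1.01 and 0.783 FPKM, and CEP250-212 at 0.886 and 1.51 against 0.727 and 1.21 FPKM.

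CEP250-207 has 14 exons and 0 exonic bases that no other listed CEP250 transcript holds. It differs from exons 4 to 17 of CEP250-202 by 1 junction, the 3-base shift of the acceptor at exon 11 shown above. CEP250-202 holds 13153 bases that are in no other listed transcript of the gene. From exon 18 of CEP250-202 to its end, no other listed transcript contributes. There the sum was higher in the knockdown samples, with a ratio of means of 1.42. Over exons 8 to 17 the sum was 9.13 and 10.8 FPKM in shCtrl and 6.08 and 6.80 FPKM in shKIAA1429, a ratio of 0.647, leaving out the 3 bases at the acceptor of exon 11 and the last 38 bases of exon 17, which CEP250-207 lacks and where the ratio was 1.42. By bases, 85.4% of 15856 were higher, 13.6% lower and 1.04% overlapped, while the sum over transcripts was lower. Of the 13535 higher bases, most were the 13153 held by CEP250-202 alone, so they repeat the estimate of that transcript.

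The direction of CEP250 therefore depended on whether transcripts were weighted by length. FPKM divides by length, so a short transcript of a few fragments adds as much to a sum as a long one of many. Multiplied by length in kilobases, which gives fragments scaled to the library, the CEP250 values summed to 81.5 and 86.9 in shCtrl and to 96.6 and 108.0 in shKIAA1429, higher by 0.28 on the log2 scale. CEP250-202 made up 70.4 and 71.9 of these in shCtrl and 95.3 and 106.7 in shKIAA1429. CEP250-207 made up 10.0 and 13.3 in shCtrl. The corresponding length-weighted sums of MLPH were 69.3 and 57.0 against 104.5 and 87.1, higher by 0.59, and those of MSANTD3 were 19.3 and 18.3 against 27.9 and 30.7, higher by 0.61. Of 7717 genes tested with at least 2 listed transcripts and all lengths known, the 2 ways of summing differed in sign in 877 (11.4%). In 10 of them (0.130%) the groups lay apart in opposite directions, as in CEP250.

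The difference in composition was measured for each gene as the share of its summed FPKM that would have to be moved between transcripts to turn one sample's mixture into the other's. For MLPH it was 43.5% between the group means, against 16.2% between the controls and 4.39% between the knockdown samples. For MSANTD3 it was 32.2%, against 7.82% and 3.81%. For CEP250 it was 44.8%, against 7.35% and 4.48%. In each gene every pair of samples from different groups was further apart than either pair from the same group, a property of 9.29% of the 8200 genes with at least 2 listed transcripts that could be compared. The median over those genes was 9.27% between group means, and the values stood at the 96.0, 89.8 and 96.5 percentiles for MLPH, MSANTD3 and CEP250. With shares of length-weighted values, a choice made after seeing the data, the differences were 25.5%, 31.8% and 14.2%. Over the 7435 genes with all lengths known the median was then 6.84%, and the members stood at the 85.2, 90.5 and 69.4 percentiles, so that CEP250 and MLPH moved closer to the other genes. Pairs from different groups stayed further apart than pairs from the same group in all 3, as in 9.70% of those genes.

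The motif GGAC, the core of the sequence context in which N6-methyladenosine is most often written, was counted on the transcript strand with no reading of methylation, in the reference sequences of the transcripts. MLPH-201, MSANTD3-203 and CEP250-202 have other ends there than in the files and are left out of the ranges given for the members. Of 37441 listed transcripts matched by identifier to the reference, 97.1% hold it at least once, with a median of 3.98 per kilobase and quartiles of 2.58 and 5.87. The MLPH transcripts held between 4.24 per kilobase, in MLPH-220, and 11.1 per kilobase, in MLPH-211. MLPH-220 and MLPH-211 were both higher in the knockdown samples. The other MSANTD3 transcripts held between 2.28 and 4.23 per kilobase and the other CEP250 transcripts between 1.82 and 5.57.

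The genes around melanophilin gave no call. Of 21 genes of the RAB27 and melanosome transport machinery, 12 were listed and 10 tested, and 0 rose or fell past the thresholds (limma, smallest adjusted p = 0.420, 1 with an unadjusted p under 0.05). Over all 11657 genes tested, 0 passed as well and 656 had an unadjusted p under 0.05 (limma). The absence of calls therefore does not set this list apart. The median log2 fold change of the list was 0.01, against −0.01 over all genes tested. The gene with the largest difference was SYTL2, which encodes a synaptotagmin-like effector of RAB27. It read 7.53 and 7.75 FPKM in shCtrl and 1.49 and 2.80 FPKM in shKIAA1429, which is −1.49 as a log2 fold change (SE 0.24, limma adjusted p = 0.420). The direct partners of melanophilin differed little, although neither overlapped between groups. RAB27A was higher, at 1.06 and 1.38 against 1.42 and 1.67 FPKM. MYO5A, the gene of myosin Va, was lower, at 9.88 and 8.66 against 7.06 and 8.50 FPKM. Their log2 fold changes were 0.20 (SE 0.17) and −0.23 (SE 0.17). Of the 10 tested, 2 were higher and 2 lower without overlap, where 16.9% and 16.7% of all genes tested were. The highest levels of the list were those of RAB32, a small GTPase of melanosome formation, at 33.8 to 41.0 FPKM, and of MADD, an exchange factor for RAB proteins, at 14.2 to 15.3 FPKM, and both overlapped between groups.

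Of 18 genes of the centriole linker and the proteins around it, 17 were listed and 15 tested, with 0 calls (limma, smallest adjusted p = 0.744, 1 with an unadjusted p under 0.05) and a median log2 fold change of 0.01. Here too, 0 of all 11657 genes tested passed and 656 had an unadjusted p under 0.05 (limma). CDK5RAP2, a centrosomal protein that recruits microtubule nucleating complexes, read 6.57 and 8.24 FPKM in shCtrl and 3.95 and 4.72 FPKM in shKIAA1429. Its log2 fold change was −0.65 (SE 0.18, limma adjusted p = 0.744). LRRC45, a linker protein, gave −0.42 (SE 0.30) and SAV1, a scaffold of Hippo signalling, −0.23 (SE 0.14). The highest levels were those of the kinesin gene KIFC3, at 50.5 to 54.1 FPKM, and of the mitotic kinase gene PLK1, at 34.4 to 47.6 FPKM. CROCC, the gene of rootletin, overlapped at 6.27 and 6.25 against 8.32 and 6.23 FPKM. NEK2, the kinase that dissolves the linker, overlapped at 12.6 and 15.9 against 12.5 and 16.9 FPKM. CROCC and NEK2 were named for their known role next to CEP250, after their values were seen. Of 3 other MSANTD genes, 2 were tested: MSANTD2 gave 0.29 (SE 0.34) and MSANTD4 −0.08 (SE 0.16), with adjusted p-values of at least 0.987 in limma.

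**Figure D5:**
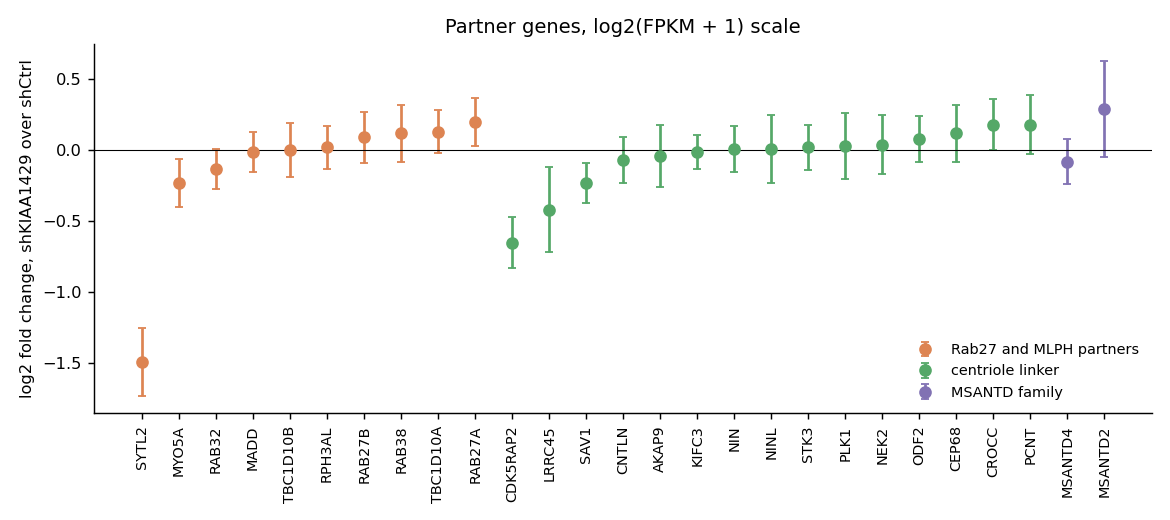
Log2 fold change, shKIAA1429 over shCtrl on the log2(FPKM + 1) scale, of the tested genes of the RAB27, centriole linker and MSANTD lists, with the SE from limma as bars. SYTL2 at −1.49 and CDK5RAP2 at −0.65 lie furthest from 0, and no gene passed an adjusted p of 0.05.

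The genes whose pattern over the 4 samples was nearest to each member, by the Euclidean distance of log2(FPKM + 1) values centred on their mean, were named by rule, 3 per member. For MLPH they were LINC01583, SYNC and ZDHHC5, at distances of 0.106, 0.114 and 0.119. For MSANTD3 they were SLIT2, MMP2 and AL513165.2, at 0.0407, 0.0620 and 0.0699. For CEP250 they were SLC12A9, GEMIN2 and ANKRD34A, at 0.0565, 0.0586 and 0.0654. Over 4 samples and 11657 genes, small distances of this kind describe these libraries and nothing more.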

How the data were processed

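The deposited files hold FPKM per annotated transcript, made by the authors with a tool not given in the sources used here. The submitters' processing notes name Bowtie2 2.1.0 and the build hg19 (GRCh37). The per-gene read counts that the study's methods describe, and its methylation and RNA-binding assays, were not analysed here. FPKM assigned to overlapping transcripts are estimates, and how strand and multiply mapped reads were handled is not given in the sources used here. Gene values are sums over listed transcripts, and symbols turned into dates in 2 files were recovered from the others. Genes that reached 1 FPKM or more in 2 or more samples were tested on log2(FPKM + 1) by limma 3.58.1 (R 4.3.3), group only, adjusted by Benjamini-Hochberg over all genes tested, with thresholds of 0.05 and a log2 fold change of 1. A log2 difference on this scale understates the change of low genes. The test was checked on simulated data. Exons, junctions and coding lengths are from GENCODE 44 lifted to GRCh37, with outer ends set to the positions in the files, and 3 transcripts (MLPH-201, MSANTD3-203 and CEP250-202) had other ends there. Genes named by rule beyond the members were VIRMA, any listed gene overlapping a member, and the 3 tested genes nearest in pattern to each member. The 3 largest differences and 2 highest levels of each partner list were named too. Genes of the hepatocyte, melanocyte, fibroblast and leukocyte marker lists were also named. CROCC, NEK2 and HIST4H4 were named after their values were seen. The members and lists were chosen with earlier results of these data known. Alternatives were upper quartile scaling, a pseudocount of 0.1, no filter, at least 1 FPKM in every sample, filtered or protein coding transcripts alone, a replicate block and leaving out each sample. Length weighting, complete coding transcripts alone, length-weighted shares and reference ends for MSANTD3 were added after seeing the data. Figures used matplotlib 3.10.9 in Python 3.11.15.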

Additional observations from a re-analysis of the deposited data

How the results depend on the processing

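Of 120 alternatives run, 107 left the call of their result in place or moved a value by less than the spread, 10 moved it further and 3 were counted as reversals. List medians were judged by the spread alone, so their changes of sign given below are not among the 3. The replicate block rows of the members and of the list medians were the same by design. So were the filter rows of CEP250, whose 4 transcripts all passed the filter. The number of genes called in each list was 0 in every setting. The 107 therefore include rows that could not differ. CEP250 accounts for 2 of the reversals: its summed difference of −0.48 became 0.28 when FPKM were multiplied by length and 0.42 over complete coding transcripts alone, settings that give CEP250-207 less weight or none. The other is the sum of MSANTD3 transcripts that reach the last end, −0.56 by the positions in the files and 0.46 by those of the reference annotation, which add MSANTD3-203 to it. The MLPH difference of 0.75 became 0.30 over complete coding transcripts. The MSANTD3 difference of 0.75 became 0.46 over complete coding transcripts, 0.61 when multiplied by length and 0.85 over transcripts that passed the filter, which leaves out MSANTD3-207. With length weighting the difference in composition was 25.5% for MLPH (from 43.5%) and 14.2% for CEP250 (from 44.8%). Length weighting, the restriction to complete coding transcripts and the reference ends were chosen after seeing the data.

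Leaving out each sample gave differences of 0.55 to 0.95 for MLPH, 0.68 to 0.82 for MSANTD3, −0.62 to −0.34 for CEP250 and −0.80 to −0.26 for VIRMA. Composition differences ranged from 41.8% to 45.2%, 31.4% to 33.1% and 43.2% to 46.4% for MLPH, MSANTD3 and CEP250. List medians ranged from −0.0307 to 0.0449 (RAB27), −0.0941 to 0.0208 (centriole linker) and −0.117 to 0.326 (MSANTD), so each changed sign. Between 0 and 1 gene was called by limma: without shCtrl replicate 1, HIST4H4 passed (137.4 and 1.85 FPKM in shCtrl, 144.7 and 167.9 in shKIAA1429, adjusted p = 0.0362), with the lone control assumed to vary like the other group. HIST4H4 was named after its value was seen.

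The replicate numbers are only numbers in the labels. Same-numbered samples deviated together across genes (correlation 0.32) and little across transcripts (0.064), and with 2 pairs this does not establish a pairing. With the replicate block, limma called 0 genes (smallest adjusted p = 0.303, 1269 with an unadjusted p under 0.05) and 0 transcripts (smallest adjusted p = 0.550). The members' differences of 0.75, 0.75 and −0.48 are the same with the block by design, since in balanced groups it cannot change a group difference. Depth is unknown, so the counting error of values near 0, such as those of MSANTD3-202 in shCtrl, cannot be given.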
